A study of Mus musculus with 32 samples.

Results

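Receptors and transporters for glutamate and GABA were followed in forebrain microglia of a mouse model of tau pathology. The 10 genes were taken by name from the deposited table of 18588 genes: the AMPA receptor subunits Gria1, Gria2 and Gria3, the NMDA receptor subunits Grin2c and Grin3a, the metabotropic glutamate receptor Grm3, the glutamate transporters Slc1a1, Slc1a2 and Slc1a3, and the GABA-A receptor subunit Gabrb1. All 10 had a row in the table. In short, Slc1a3 (the glutamate transporter GLAST) was the only one of the 10 with a signal far above the low end of the libraries, and it was lower in the transgenic microglia by 1.58 fold at 6 months and 1.64 fold at 8 months. The other 9 lay close to the low end, where differences rest on low signal levels. The 1 call among these 9 at 8 months, of Slc1a2, was lost without 1 WT library that stood apart.

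The rTg4510 animals carried human 4-repeat tau with the P301L mutation behind a tetracycline-responsive element, together with a CaMKIIα-driven tTA transgene that turns tau on after birth in forebrain neurons and can be silenced with doxycycline. The promoter of the driver is neuronal, so the microglia are not themselves the cells meant to make the tau. WT controls were littermates free of both transgenes (strain given as 129/FVB F1). All animals were female and 2, 4, 6 or 8 months old. Each library came from CD11b bead-selected cells of the forebrains of 8 to 10 pooled animals, so animals were not measured singly. There were 4 libraries per genotype and age, and 28 of the 32 were kept here because the study had set aside replicate 3 of both genotypes at 4 months and replicate 4 of both at 8 months after quality control. This left 4 libraries per genotype at 2 and 6 months and 3 at 4 and 8 months.

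Glutamate released at synapses opens AMPA and NMDA receptor channels on neurons and acts more slowly through metabotropic receptors, and it is cleared from the cleft mainly by the astrocyte transporters GLT-1 (Slc1a2) and GLAST (Slc1a3). GABA-A receptors are chloride channels that carry most fast inhibition in the brain. Most of these proteins are best known from neurons, astrocytes and oligodendrocyte precursors, and microglia can carry some of them as well.

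The deposited values are log2 signals centred so that every library has a median of 5.63, and the reads per library cannot be read from them. The low values follow steps like those of small read counts, with the lowest value of a library between 1.23 and 1.92. An approximate number, called inferred reads here, was taken from the height above that floor. As the signal summarises the exons of a gene, this number stands for a level over those exons and not for the gene's total reads. It follows each library's own floor and is not normalised between libraries. In rTg4510 at 6 months, Slc1a3 signals of 9.16 and 9.20 gave 270 and 376 inferred reads. Sums of inferred reads over a marker list carry the same limit. A value within 3 inferred reads of the floor is called near the floor here. The signal is not corrected for gene length, so levels are not compared between genes. All 12 microglia markers were above 3 inferred reads in every library. Among the markers of other cells, 2 of 15 astrocyte markers (Ntsr2 and Mlc1, 2 libraries each), 5 of 8 oligodendrocyte precursor markers (Gpr17 in 2 libraries, and Pdgfra, Olig1, Olig2 and Sox10 in 1 each), 2 of 10 oligodendrocyte markers (Opalin in 6, Cldn11 in 1), 2 of 9 neuron markers (Syt1 in 5, Nefm in 9) and 0 of 10 endothelial markers were at the floor itself in any library. More values were near the floor. The markers most often near it in these lists, in the same order, were Aldh1l1 (14 of the 28 kept libraries), Cspg4 (15), Mog and Opalin (9 each), Nefm (16) and Esam (5). WT 8 months replicate 1 stood apart from the other libraries: its mean astrocyte marker signal was 6.91 (15 genes) against 3.67 to 5.65 in the other 27, with oligodendrocyte markers at 7.63 (10 genes). The next highest library in both lists was the same-numbered rTg4510 8 months replicate 1, with 5.65 and 6.64. The genotype differences of the members at 8 months are therefore given with and without WT 8 months replicate 1. The fits without it keep rTg4510 8 months replicate 1, and no fit left out both.

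Genotypes were compared at each age in a linear model over the 28 libraries, and a gene was called where the false discovery rate (FDR, over all 18588 genes) was below 0.05 and the difference above 1.5 fold. No member was called higher at any age, against 1.58% of all genes at 2 months, 9.47% at 4, 11.3% at 6 and 10.5% at 8. None was called lower at 2 months, where the background was 0.403%. At 4 months 2 of the 10 were called lower (Gabrb1 and Grin2c; background 4.33%), at 6 months 3 (Gabrb1, Slc1a3 and Gria2; background 8.54%) and at 8 months 2 (Slc1a3 and Slc1a2; background 5.37%). All rTg4510 libraries lay below all WT libraries for 1 member at 2 months, 3 at 4, 3 at 6 and 3 at 8, where the same held for 3.51%, 17.5%, 14.6% and 15.5% of all genes. The median log2 fold change of the members was -0.25, -0.63, -0.91 and -1.15 at the 4 ages, beside 0.01, -0.04, -0.04 and -0.01 over all genes, and 10 of the 10 estimates were negative at both 6 and 8 months. Without WT 8 months replicate 1, the 8-month median was -0.54, 9 of the 10 estimates were negative, and Slc1a3 was the 1 member called. The members were chosen with earlier results of these data known, so their shift is not independent of that choice. Every cell type marker list also had a negative median at 6 months. These were -1.01 for oligodendrocytes, -0.86 for endothelial cells, -0.73 for oligodendrocyte precursors, -0.71 for neurons, -0.69 for astrocytes and -0.52 for microglia.

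**Figure D1:**
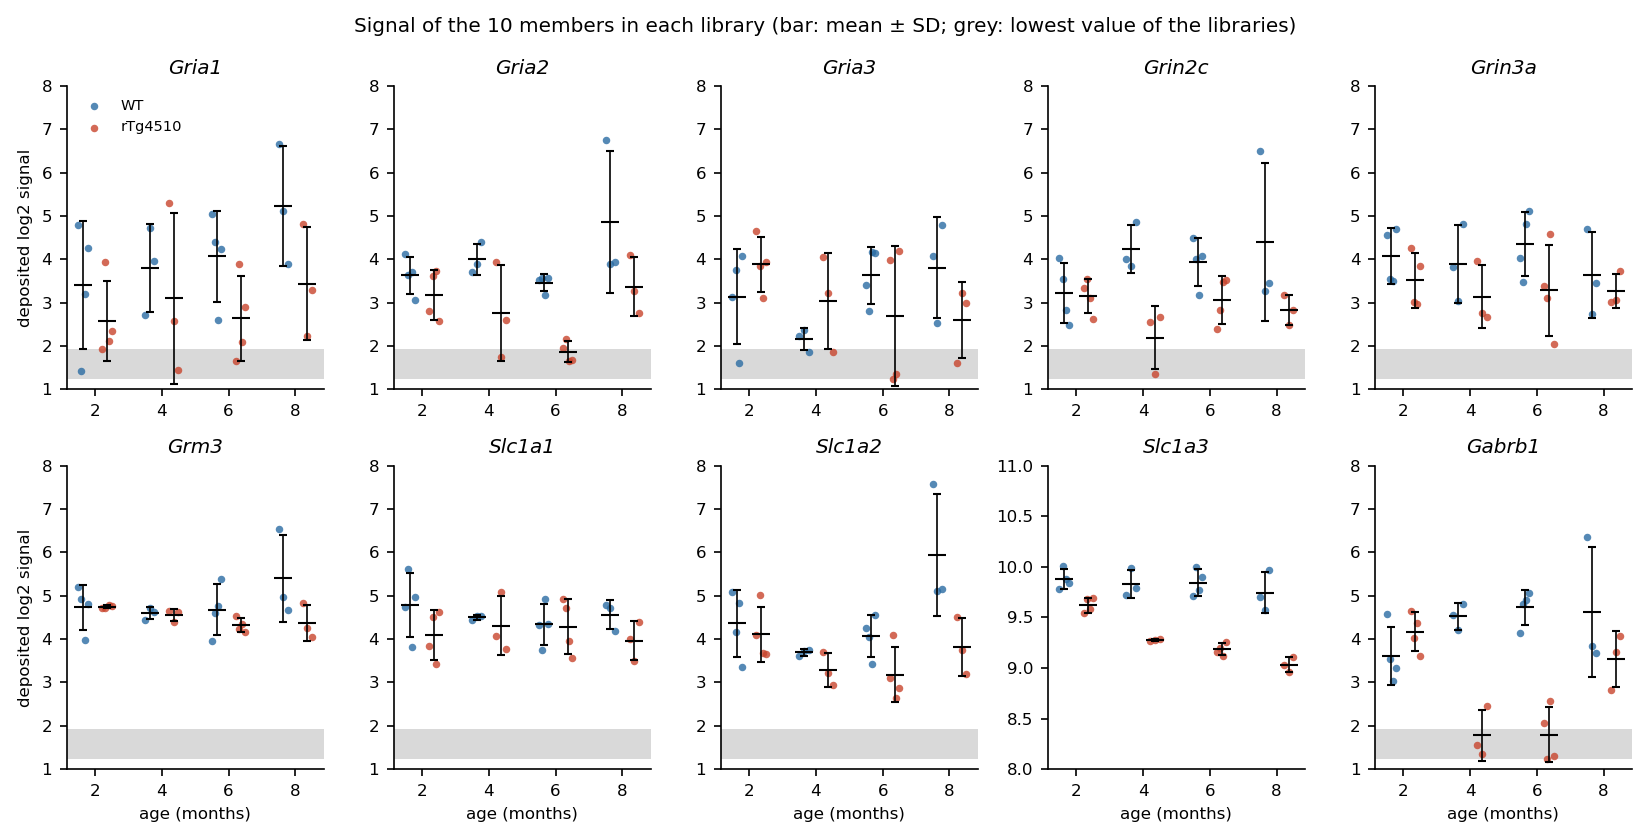
Deposited log2 signal of the 10 genes (y axis) against age in months (x axis), with 1 point per library for WT (blue) and rTg4510 (red), black bars for the mean ± SD, and the grey band for the lowest value of the libraries. Slc1a3 has its own y axis, and its red points lie below its blue points at every age, while Gabrb1 in rTg4510 drops into or close to the grey band at 4 and 6 months, and WT 8 months replicate 1 is the highest point for Gria1, Gria2, Grin2c, Grm3, Slc1a2 and Gabrb1.

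Slc1a3 takes up glutamate together with sodium and is the classical transporter of radial glia and astrocytes. In WT its signal was 9.78, 10.01, 9.88 and 9.84 at 2 months, 9.72, 9.99 and 9.79 at 4 months, 9.71, 10, 9.77 and 9.90 at 6 months, and 9.70, 9.57 and 9.97 at 8 months. In rTg4510 it was 9.54, 9.68, 9.58 and 9.69 at 2 months, 9.27, 9.28 and 9.29 at 4 months, 9.16, 9.20, 9.12 and 9.26 at 6 months, and 9.03, 8.96 and 9.11 at 8 months. The genotypes did not overlap at any age, and the gap between their means was wider from 4 months on than at 2 months.

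The log2 fold change of Slc1a3 was -0.25 at 2 months (SE 0.0776, FDR = 0.065), which missed the threshold. At 4 months it was -0.56 (SE 0.0896, FDR = 7.18e-05), past the FDR threshold but at 1.47 fold short of the fold threshold, which it passed without WT 4 months replicate 1 (-0.61). It was called at 6 months (-0.66, SE 0.0776, FDR = 7.27e-07) and at 8 months (-0.71, SE 0.0896, FDR = 2.56e-06). Leaving out WT 8 months replicate 1 gave -0.74 at 8 months (FDR = 1.57e-05). In the rTg4510 libraries alone, Slc1a3 changed from 2 months by -0.34 at 4 months (FDR = 0.00717), -0.44 at 6 months (FDR = 0.000215) and -0.59 at 8 months (FDR = 2.5e-05), of which the last passed both thresholds, at 1.503 fold. That call lies at the threshold and was lost when any one of rTg4510 2 months replicate 2, rTg4510 2 months replicate 4 or rTg4510 8 months replicate 2 was left out. The WT changes from 2 months were -0.04, -0.03 and -0.13 and none passed. The genotype difference itself differed from that at 2 months by -0.31 at 4 months, which did not pass (FDR = 0.136), and by -0.41 at 6 months (FDR = 0.0148) and -0.46 at 8 months (FDR = 0.0147), both under 1.5 fold.

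Across the 28 libraries, Slc1a3 followed the mean of the microglia markers (Pearson's r = 0.93) and not that of the astrocyte markers (r = 0.128). These are descriptions over libraries that share a genotype difference and a normalisation. Of the 12 microglia markers, 1 was called lower at 2 months, 3 at 4, 4 at 6 and 4 at 8, and none higher, with Tmem119, Sall1 and Gpr34 lower at each of the 3 later ages. The median log2 fold change of the markers was -0.52 at 6 months and -0.53 at 8 months. Without WT 8 months replicate 1, 6 were lower at 8 months and the median was -0.57. The mean marker signal was 10.31 to 10.45 in WT and 9.85 to 10.02 in rTg4510 at 6 months, and 10.06 to 10.33 against 9.66 to 9.79 at 8 months, without overlap. The summed level, which also varies with each library's floor, overlapped at 6 months. It was 15090 to 19540 inferred reads in WT and 12800 to 18380 in rTg4510. At 8 months it was 15060 to 17670 against 11500 to 14020. None of the 12 was at the floor. The part of these markers in the Slc1a3 difference was not tested, and in bulk libraries fewer cells of a type and less RNA per cell cannot be told apart. Of the 15 astrocyte markers, 0 were called at 2 months, 1 higher at 4 (F3), 1 higher (Gfap) and 2 lower (Aqp4 and Plpp3) at 6, and 1 higher (Gfap) and 1 lower (Aqp4) at 8.

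**Figure D2:**
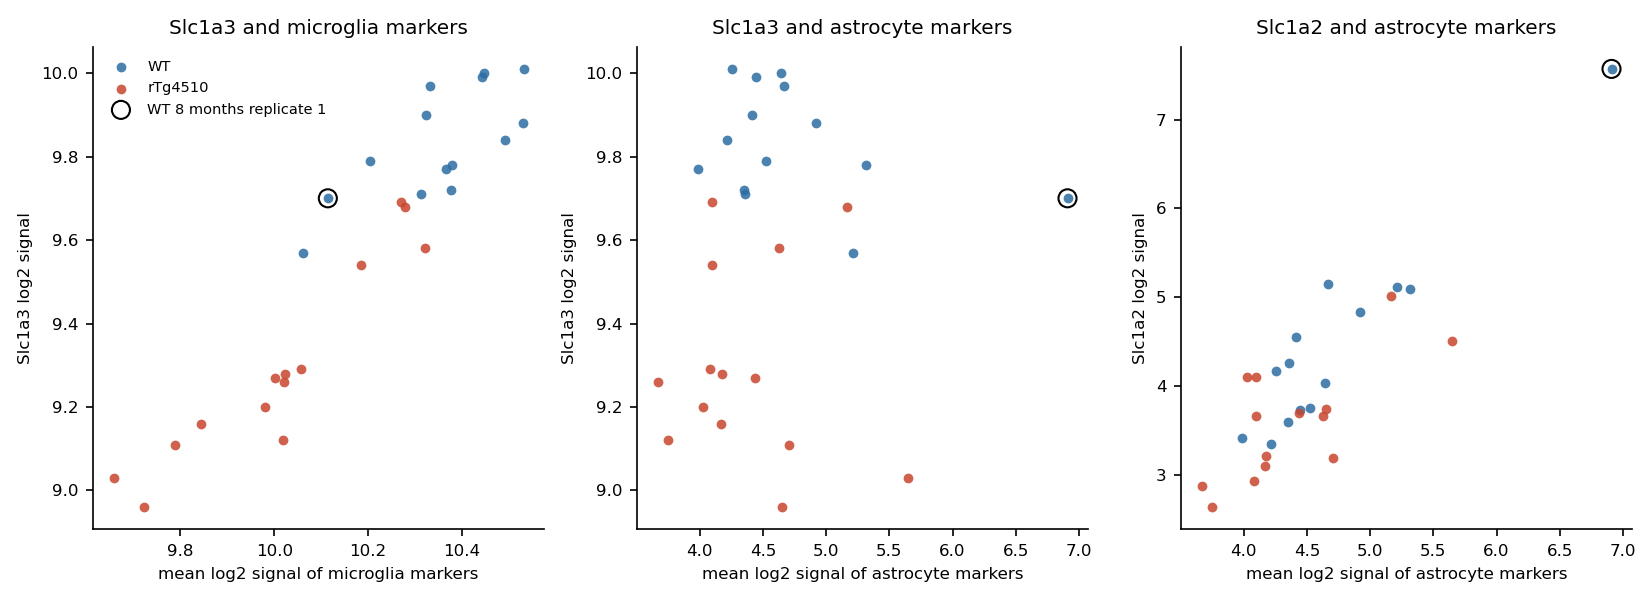
Signal of Slc1a3 against the mean log2 signal of 12 microglia markers (left) and 15 astrocyte markers (middle), and of Slc1a2 against the astrocyte markers (right), with 1 point per library (28, WT blue, rTg4510 red) and WT 8 months replicate 1 ringed. Slc1a3 rises with the microglia markers (r = 0.93) and shows little relation to the astrocyte markers (r = 0.128), whereas Slc1a2 rises with the astrocyte markers (r = 0.867, and 0.738 without the ringed library) and, not plotted, with the neuron markers (r = 0.853 and 0.814).

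The protein-coding genes whose profile was most like that of Slc1a3 among 6809 candidates were Gm2897, Gm3500 and Gm3411 (r = 0.984, 0.983 and 0.982). They belong to a family of near-identical genes between which reads may have been shared, so they do not count as separate genes here.

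Slc1a3 lies on chromosome 15 at 8634124 to 8710807, minus strand, and Slc1a2 on chromosome 2 at 102658239 to 102790784, plus strand (RefSeq, GRCm38.p6). The 250 bases before the RefSeq start of these paralogous transporters are shown because both are known as glial glutamate transporters while their signals followed different marker lists. Capitals mark the motif matches found on either strand, and the windows are chr15:8710808-8711057 (minus strand) and chr2:102706188-102706437 (plus strand, a start inside the gene's outer limits), read 5′ to 3′.
Slc1a3: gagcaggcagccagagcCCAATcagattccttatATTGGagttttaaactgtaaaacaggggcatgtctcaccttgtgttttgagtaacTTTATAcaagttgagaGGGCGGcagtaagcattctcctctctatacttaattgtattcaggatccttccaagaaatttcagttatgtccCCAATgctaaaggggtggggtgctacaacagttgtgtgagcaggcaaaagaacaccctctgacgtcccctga
Slc1a2: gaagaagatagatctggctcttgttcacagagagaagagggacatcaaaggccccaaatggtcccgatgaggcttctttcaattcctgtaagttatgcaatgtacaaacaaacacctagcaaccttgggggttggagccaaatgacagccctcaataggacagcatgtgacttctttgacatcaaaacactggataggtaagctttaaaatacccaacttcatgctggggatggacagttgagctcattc

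Motifs were searched as exact letters on both strands in 32851 RefSeq windows of the same 250 bases. The Slc1a3 window held the CCAAT box (CCAAT) at 3 places, a GC box (GGGCGG) and a TATA-type match (TATAAA), which occur in 33.8%, 32.7% and 12.4% of all windows. The Slc1a2 window, at a start inside the gene and not at its outer 5′ end, held none of them. The windows are thus of unlike starts and are not compared as promoters. Neither window held the other letters searched, namely GAGGAAGT (the core of PU.1 sites, in 2.44% of windows), TTCAGCACC (part of the RE1 element, 0.301%), TGACGTCA (the CRE, 1.55%) and CACGTG (an E-box, 6.02%). Both windows had 44.8% G and C against a median of 52.4%, with 2 and 1 CpG against a median of 6. Of the 10 genes, 7 had a window. The matches describe these letters only.

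The other transporters were near the low end. Slc1a2, the main astrocyte glutamate transporter, had signals of 7.57, 5.12 and 5.15 in WT at 8 months and 4.51, 3.74 and 3.19 in rTg4510. The groups did not overlap, but the first WT value, from replicate 1, lay far above the other two. The log2 fold change was -2.14 (SE 0.58, FDR = 0.00855), and -1.32 without that library (FDR = 0.076), where the call was lost although the other WT values still lay above all 3 rTg4510 values. At 6 months WT had 4.26, 4.04, 3.42 and 4.55 and rTg4510 3.10, 4.10, 2.64 and 2.88, which overlapped (-0.88, SE 0.502, FDR = 0.188). At 2 and 4 months the estimates were -0.25 and -0.41 and neither passed.

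Slc1a2 moved with the markers of several other cell types across the libraries, with r = 0.867 for astrocytes, 0.853 for neurons and 0.806 for oligodendrocytes, and 0.738, 0.814 and 0.679 without WT 8 months replicate 1. At 8 months the astrocyte mean was 4.66 to 6.91 in WT and 4.65 to 5.65 in rTg4510, and the summed level 349.5 to 1810 against 256.8 to 508.4 inferred reads. The other two WT libraries had means of 5.22 and 4.66. The neuron mean was 4.19 to 4.93 in WT and 3.81 to 4.25 in rTg4510, and the sum 87.4 to 150.6 against 80.7 to 98.0 inferred reads, with 1 of 9 called higher (Eno2) and 0 lower. The median log2 fold change of the 15 astrocyte markers was -0.85 at 8 months and 0.02 without WT 8 months replicate 1, with 0 of them lower and 1 higher then. The part of RNA from any of these cells in the Slc1a2 difference was not tested. Its closest genes were Tmod2, Map1a and Ptn (r = 0.878, 0.856 and 0.831), and without WT 8 months replicate 1 these were 0.803, 0.755 and 0.755.

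Slc1a1 encodes EAAC1, the transporter of neuronal cell bodies and dendrites. It was 3.42 to 5.61 over all 28 libraries, the genotypes overlapped at every age, and its estimates ran from -0.69 at 2 months (FDR = 0.414) to -0.05 at 6 months (FDR = 0.936). At 8 months it was -0.59, and -0.48 without WT 8 months replicate 1. No source used here says that strand was kept in counting, and 31.9% of its exonic bases are shared with 4430402I18Rik on the other strand (GENCODE vM21), so its signal may include reads of that gene.

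Gabrb1 encodes the beta 1 subunit of the GABA-A receptor. In WT it read 4.57, 3.54, 3.03 and 3.33 at 2 months, 4.56, 4.2 and 4.82 at 4 months, 4.14, 4.81, 4.91 and 5.07 at 6 months, and 6.35, 3.84 and 3.69 at 8 months. In rTg4510 it read 4.66, 4.02, 4.38 and 3.62 at 2 months, 1.55, 1.35 and 2.45 at 4 months, 2.07, 1.23, 2.58 and 1.31 at 6 months, and 2.82, 3.71 and 4.07 at 8 months. All 7 kept rTg4510 libraries of 4 and 6 months were near the floor and below every kept WT library of those ages. The genotypes overlapped at 2 and 8 months. WT 4 months replicate 3, set aside by the study, had 2.17, which is near the floor and below the 2.45 of rTg4510 4 months replicate 4.

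The log2 difference of Gabrb1 was -2.75 at 4 months (SE 0.574, FDR = 0.0011) and -2.93 at 6 months (SE 0.497, FDR = 8.11e-05), and both calls held when any 1 library was left out. Since 4 of the 7 low libraries were at the floor itself, these differences depend on where the floor lies and are not given as folds. At 2 months the estimate was 0.55 (FDR = 0.681) and at 8 months -1.10 (FDR = 0.181), or -0.24 without WT 8 months replicate 1. The genotype difference was lower than at 2 months by -3.30 at 4 months (FDR = 0.0098) and -3.48 at 6 months (FDR = 0.00165), and the corresponding -1.65 at 8 months did not pass (FDR = 0.215). Gabrb1 was the 1 member of 10 called in those tests at 4 months and at 6 months, and 0 were called at 8 months. Over all genes the shares called were 4.66%, 8.89% and 6.7%. With all 32 libraries the 4-month genotype difference was -2.05 (FDR = 0.00868), and its change from 2 months, -2.60, did not pass (FDR = 0.0625).

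In the rTg4510 libraries alone, Gabrb1 changed from 2 months by -2.38 at 4 months (FDR = 0.00399) and -2.37 at 6 months (FDR = 0.00116), but only by -0.63 at 8 months (FDR = 0.465). The members called in that genotype were thus 1 at each age (Gabrb1, Gabrb1 and Slc1a3), beside 6.39%, 13.4% and 10.5% of all genes. In WT 0 members were called against 2 months at any later age, beside 0.0484%, 0.382% and 1.27% of all genes, and 0, 1 and 2 members had an unadjusted p under 0.05 in the same limma fit, beside 10.2%, 14.5% and 19.2% of all genes. Of the marker lists, the neuron markers had the highest r with Gabrb1 over the 28 libraries (0.549), above the endothelial (0.447) and microglia (0.424) markers. Without WT 8 months replicate 1 the microglia (0.493) and endothelial (0.465) markers were above the neuron markers (0.432). The mean of the 9 neuron markers in the table was 3.98 to 4.29 in WT and 3.44 to 3.86 in rTg4510 at 4 months, with 1 called higher (Eno2) and 0 lower. Their summed level was 79.2 to 92.3 against 61.7 to 78.5 inferred reads. At 6 months the means were 3.56 to 4.47 and 3.36 to 4.01 and the sums 74.05 to 96.2 and 60.2 to 106.9, with 1 higher (Eno2) and 2 lower (Snap25 and Syn1). The microglia means did not overlap between the genotypes: the lowest in WT and the highest in rTg4510 were 10.20 and 10.06 at 4 months, and 10.31 and 10.02 at 6 months. The part of any list in the Gabrb1 difference was not tested.

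The genes most like Gabrb1 included Lcn2 and S100a8 (r = 0.824 and 0.77). Lcn2 encodes an iron-siderophore binding protein and S100a8 a calcium-binding protein abundant in neutrophils. Gabrb1 shares 0.332% of its exonic bases with Gabra4, which lies beside it on the other strand.

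**Figure D3:**
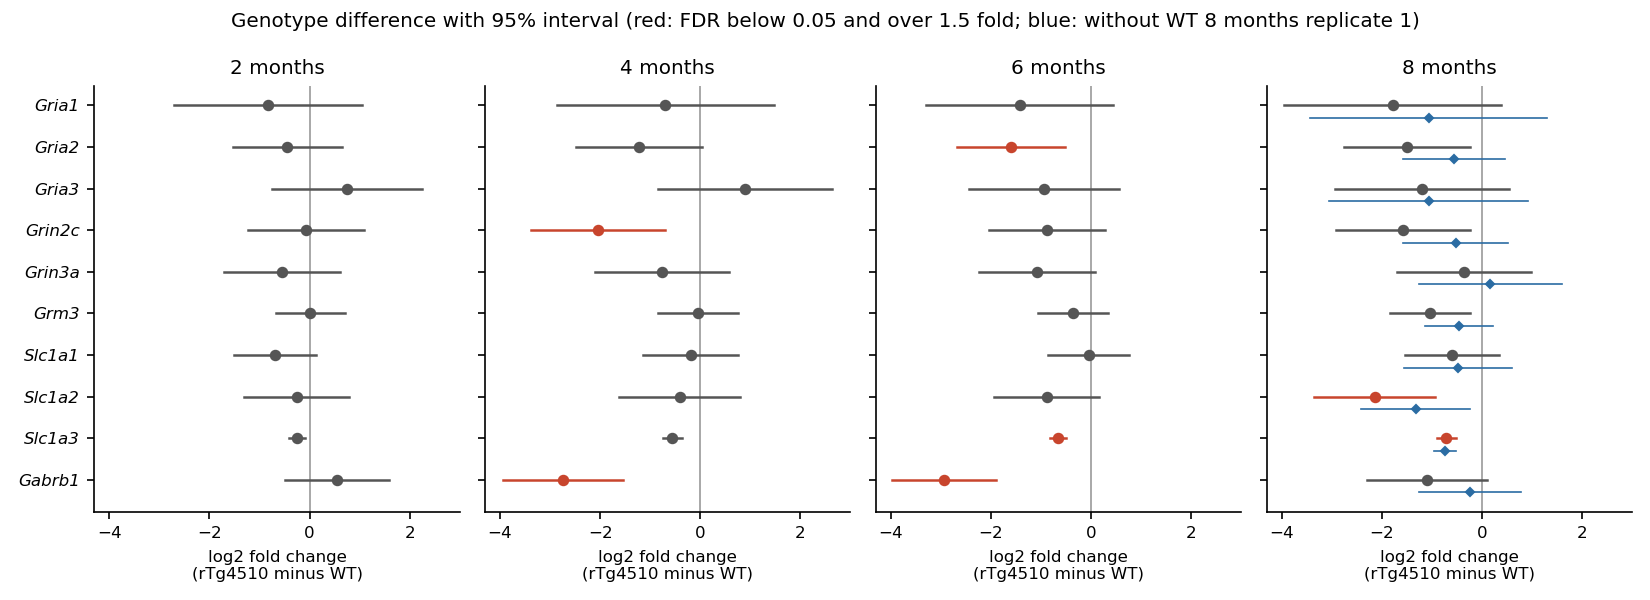
Log2 fold change of rTg4510 against WT (x axis) for the 10 genes (y axis) at each age, with 95% confidence intervals from the linear model. Red marks genes past FDR 0.05 and 1.5 fold, and blue diamonds at 8 months are the estimates without WT 8 months replicate 1, with which Slc1a2 moves from -2.14 to -1.32 and Slc1a3 from -0.71 to -0.74.

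The AMPA receptor subunits were low in all groups. Gria2, the subunit that makes the channel poorly permeable to calcium, read 3.53, 3.57, 3.17 and 3.56 in WT at 6 months and 1.96, 2.16, 1.66 and 1.68 in rTg4510. The groups did not overlap, and all 4 rTg4510 libraries and 1 WT library were near the floor. The log2 difference was -1.59 (SE 0.519, FDR = 0.0215), a call that was lost without rTg4510 6 months replicate 3 (-1.53, FDR = 0.0514).

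At 4 months Gria2 read 3.70, 3.90 and 4.39 in WT and 3.94, 1.75 and 2.61 in rTg4510, which overlapped (-1.23, SE 0.6, FDR = 0.158). Without rTg4510 4 months replicate 1, the high transgenic library, the difference was -1.81 and passed (FDR = 0.0426). It also passed without WT 8 months replicate 1 (FDR = 0.049), which lowers the pooled variance of this gene. At 8 months Gria2 read 6.75, 3.90 and 3.94 in WT against 4.09, 3.26 and 2.75, with a difference of -1.50 (FDR = 0.0745) that fell to -0.55 without WT 8 months replicate 1 (FDR = 0.477). With the replicate number as a block, Gria2 passed at 8 months (FDR = 0.0418).

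Gria2 and Slc1a2 had like profiles over the libraries (r = 0.822, and 0.681 without WT 8 months replicate 1), and Tmod2, Map1a and Ptn were the 3 closest genes to both. With the astrocyte markers Gria2 had r = 0.838 (0.709 without that library) and with the neuron markers r = 0.792 (0.711). At 6 months the astrocyte mean was 3.98 to 4.64 in WT and 3.67 to 4.17 in rTg4510, and the summed level 208.5 to 277.7 against 142.7 to 239.1 inferred reads. The oligodendrocyte markers (r = 0.789, and 0.66 without that library) did not overlap at 6 months, with means of 4.79 to 5.27 against 3.82 to 4.47 and sums of 154.9 to 193.6 against 109.5 to 151.1, and 0 of 10 called. The endothelial means (r = 0.512 and 0.619) were also apart, at 4.07 to 4.63 against 3.54 to 4.04, with sums of 73.9 to 129 against 71.7 to 120.4 and 3 of 10 called lower (Pecam1, Cdh5 and Ly6c1) and 1 higher (Flt1). The part of any of these cell types in the Gria2 difference was not tested.

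Gria1 and Gria3, the other AMPA subunits measured, were called at no age. Gria1 was at the floor in 4 of the 28 libraries and ranged from 1.43 to 6.67, and its estimates were -0.83, -0.70, -1.43 and -1.78 at the 4 ages with FDRs of 0.743, 0.688, 0.238 and 0.235. At 8 months it read 6.67, 5.11 and 3.90 in WT and 4.82, 2.22 and 3.28 in rTg4510, and the estimate was -1.06 without WT 8 months replicate 1. Gria3 was also at the floor in 4 libraries and changed direction with age, from 0.75 at 2 months and 0.89 at 4 months to -0.95 at 6 months and -1.20 at 8 months (-1.06 without WT 8 months replicate 1), none of which passed. Its 95% intervals at 4 and 6 months were -0.84 to 2.62 and -2.45 to 0.56, so these libraries leave room for sizeable differences either way.

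Grin2c encodes an NMDA receptor subunit typical of cerebellar granule cells and also found in astrocytes. At 4 months it read 4.00, 3.84 and 4.87 in WT and 2.55, 1.35 and 2.67 in rTg4510, all of the latter near the floor and below WT. The log2 difference was -2.05 (SE 0.639, FDR = 0.0237). It no longer passed without rTg4510 4 months replicate 2 (-1.63, FDR = 0.118) or WT 4 months replicate 4 (-1.73, FDR = 0.106), or when only the 4-month libraries were fitted (-2.05, FDR = 0.0965).

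At 6 months Grin2c read 4.48, 4.01, 3.17 and 4.07 in WT against 2.39, 2.82, 3.48 and 3.53, with overlap (-0.88, FDR = 0.240). At 8 months it read 6.50, 3.26 and 3.45 against 3.18, 2.49 and 2.82. These did not overlap, and the difference of -1.57 (FDR = 0.0784) became -0.52 without WT 8 months replicate 1. It passed at 8 months when WT 8 months replicate 2 (FDR = 0.0247) or replicate 3 (FDR = 0.0388) was left out, which gives replicate 1 more weight. Grin2c had r = 0.664 with the oligodendrocyte markers and 0.629 with the neuron markers, and 0.457 and 0.467 without WT 8 months replicate 1. Beside the 4-month difference, the oligodendrocyte markers had means of 4.19 to 5.42 in WT and 3.57 to 4.87 in rTg4510 and sums of 104.1 to 254.6 against 100.8 to 180.7 inferred reads, with 0 of 10 called. Their part was not tested.

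Grin3a encodes an NMDA subunit that lowers calcium flow through the channel. It read 4.04, 3.47, 4.81 and 5.11 in WT at 6 months and 3.39, 3.10, 4.58 and 2.05 in rTg4510, and the difference of -1.07 did not pass (FDR = 0.147), except without rTg4510 6 months replicate 3 (-1.51, FDR = 0.047). At 8 months the estimate of -0.36 turned to 0.17 without WT 8 months replicate 1. One of the libraries set aside by the study, rTg4510 4 months replicate 3, had 7.16, the highest Grin3a signal of all 32, and with all 32 libraries the 4-month estimate turned from -0.76 to 0.48 (FDR = 0.678).

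Grm3, a metabotropic receptor that lowers cyclic AMP and is found in astrocytes and neurons, was near the floor in no library. In rTg4510 it read 4.71, 4.72, 4.78 and 4.77 at 2 months, 4.64, 4.4 and 4.62 at 4 months, 4.53, 4.23, 4.35 and 4.16 at 6 months, and 4.83, 4.25 and 4.04 at 8 months. In WT it read 5.20, 4.92, 3.98 and 4.82, then 4.44, 4.71 and 4.63, then 3.95, 4.60, 4.77 and 5.39, and at 8 months 6.55, 4.98 and 4.67. The genotypes overlapped at every age.

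The differences of Grm3 were 0.01, -0.04 and -0.36 at the first 3 ages and none passed. At 8 months the estimate was -1.03 (SE 0.383, FDR = 0.053), just above the threshold, and it was -0.46 (FDR = 0.363) without WT 8 months replicate 1. It passed with the replicate number as a block (FDR = 0.047) and when another 8-month library was left out, namely rTg4510 replicate 1, WT replicate 2 or WT replicate 3 (FDR = 0.0371, 0.0405 and 0.0142). It passed as well with all 32 libraries (FDR = 0.0394), quantile normalization (FDR = 0.0486), moderated variance (FDR = 0.0397) and the filter on low genes (FDR = 0.0457), which makes 8 of 12 alternatives, all of which kept WT 8 months replicate 1. Its closest gene, Cnp, a myelin enzyme, had r = 0.688, which fell to 0.316 without WT 8 months replicate 1.

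**Figure D4:**
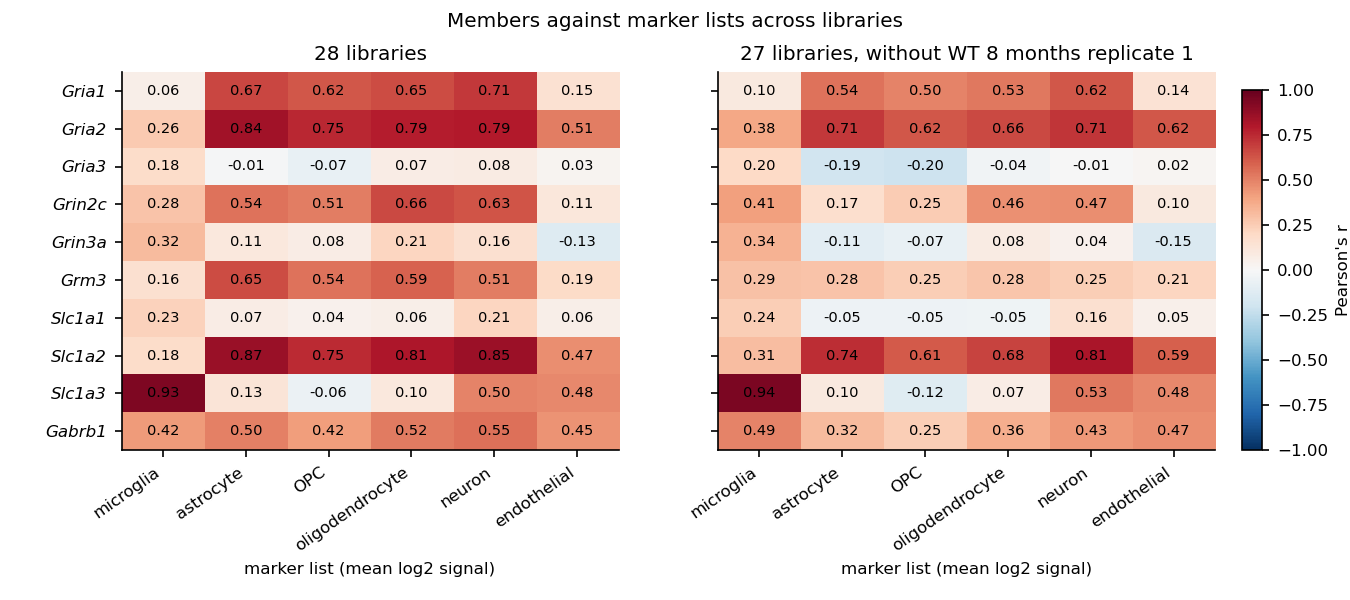
Pearson's r across libraries between each of the 10 genes (y axis) and the mean log2 signal of 6 lists of cell type markers (x axis, OPC for oligodendrocyte precursor), over 28 libraries (left) and without WT 8 months replicate 1 (right). Slc1a3 stands with the microglia list (0.93 and 0.94), and the values of Grin2c and Grm3 with the astrocyte list fall from 0.54 to 0.17 and from 0.65 to 0.28 when that library is left out.

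Of 90 further genes of glutamate and GABA signalling, 39 were in the table. Called higher and lower were 1 and 0 at 2 months, 3 and 3 at 4, 3 and 5 at 6, and 3 and 2 at 8. Over all genes the shares called higher were 1.58%, 9.47%, 11.3% and 10.5% at the 4 ages. The shares called lower were 0.403%, 4.33%, 8.54% and 5.37%. None of the 4 other glutamate receptor genes in the table (of 20 listed) and neither of the 2 GABA transporters (of 5) was called at any age. Among the other glutamate and neutral amino acid transporters (3 of 8 in the table), Slc1a5, a glutamine carrier, was higher at 6 months (0.75, SE 0.173, FDR = 0.00177) and 8 months (1.10, FDR = 0.000225). Slc1a4, which carries serine and alanine, was lower at 4, 6 and 8 months (-0.86, -1.09 and -1.42, with FDRs of 0.0318, 0.00144 and 0.000593).

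Among the other GABA receptor genes (4 of 20), Gabbr1, a subunit of the metabotropic GABA-B receptor, was lower at 4, 6 and 8 months, with log2 fold changes of -0.67, -1.02 and -0.84 (FDR = 3.67e-06, 6.44e-10 and 1.5e-07). Among the enzymes of glutamate and GABA metabolism (8 of 10), Got1, the cytosolic aspartate aminotransferase, was called higher at every age, with 0.65, 1.33, 1.58 and 1.73 (FDR = 2.62e-05, 6.15e-10, 2.39e-12 and 1.13e-11), and the other 7 were not called. Glul, which makes glutamine from glutamate, passed the FDR threshold with -0.39, -0.32 and -0.52 at 4, 6 and 8 months (FDR = 0.00369, 0.00361 and 0.000201) but not the fold threshold. Of the auxiliary and scaffold proteins of these receptors (18 of 27), Shisa7 was higher at 4, 6 and 8 months (1.01, 0.84 and 1.02) and Dlg3 higher at 4 months (0.67). Shank3 was lower at 4 and 6 months (-1.46 and -1.09), and Shank1 and Shank2 lower at 6 months (-1.01 and -1.74), where Shank2 and Shank3 had medians of 2.64 and 6.17 inferred reads over the libraries. Without WT 8 months replicate 1, 4 of the 39 genes were called higher and 2 lower at 8 months, the added gene being the cystine and glutamate exchanger Slc7a11.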

How the data were processed

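RNA-seq of CD11b-selected microglia was deposited as 1 table of log2 signals with 32 library columns, all of them mapped to samples by title (0 unused). The authors summed exon reads over runs, dropped exons with under 10 counts in more than 80% of samples, summarised the exons of a gene by robust linear fitting, and deposited the log2 values after median normalization. The submitters' processing notes name the build GRCm38; aligner and annotation are not given in the sources used here. Entrez IDs were matched to RefSeq symbols (95.9% of 18588). The paper gives 1 approximate depth for all samples. Without counts, the exact depth of each library is unknown and no count model was used.

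A genotype by age linear model over 28 libraries (limma 3.58.1 in R 4.3.3, per-gene variance, 20 residual degrees of freedom, Benjamini-Hochberg FDR per contrast) gave differences, which are of log2 signal, and their intervals. It was tested on simulated data. Calls needed FDR below 0.05 and over 1.5 fold. Inferred reads were 1.5 times 2 to the power of the height above the library's lowest value, minus 1.5. The 1.5 was read from the values and is not given by the authors. Of 88613 low values, 30.3% came out whole and 23.3% midway within 0.003 log2 units, so these numbers are approximate. Libraries are pools of animals, and p-values measure the spread between pools.

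The members and lists were chosen with earlier results of these data known. Named genes were all members, the 3 genes most correlated with each among protein-coding genes above the median signal (printed where they add to a result, and 1 not reported here), and up to 4 called genes per pathway list. Same-numbered libraries of both genotypes had residual correlations of 0.131 to 0.153 at 6 months and 0.15 to 0.291 at 8 months. Other pairs there reached at most 0.091 and -0.028. At 2 months the same-numbered pairs had 0.065 to 0.167 and the others up to 0.082. At 4 months these were -0.1 to 0.124 and up to 0.154. On these values alone, the numbers pair the libraries at 6 and 8 months, less clearly at 2 months, and not at 4 months. The main fit did not use the pairing. The alternatives were fitting only the 2 groups of an age, all 32 libraries, the replicate block, quantile normalization, moderated variance, a filter on low genes and leaving out each library. Promoter windows are from RefSeq (GRCm38.p6) and exon overlaps from GENCODE vM21.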

Additional observations from a re-analysis of the deposited data

Results flagged for a closer look

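Gria2 in WT at 6 months had 1 low library, replicate 3 with 3.17, while the other 3 lay between 3.53 and 3.57. Its gap took 0.902 of the group's range, above Dixon's critical value for 4 samples. Of 40 groups tested this was the 1 flagged, and chance flags about 1 in 20 groups.

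The genotype difference of Gabrb1 was unlike that at 2 months both at 4 months (by -3.295 on the log2 scale) and at 6 months (by -3.4804), tested as interaction terms of the linear model. At those ages all kept rTg4510 libraries were near the floor and all kept WT libraries above it. With all 32 libraries the 4-month term was -2.60 and did not pass (FDR = 0.0625).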

How the results depend on the processing

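Of 488 refits of single members, 462 stayed on their side of the threshold, 7 lost a call, 19 gained one and 0 called values reversed. The 488 include the refits of results that were not called. Of the fits that left out a library, they count only those leaving out a library of the same age. The Gria2 call at 4 months without WT 8 months replicate 1 is thus not among them. The losses fell on Grin2c at 4 months (3 of 11 refits), Gria2 at 6 months (2 of 13) and Slc1a2 at 8 months (2 of 11). Fitting only the 2 groups of an age left 1 member called at 4 months and 1 at 8 months. All 32 libraries left 0 members whose genotype difference at 4 months was called unlike that at 2 months. The replicate block gave 4 members (Gria2 and Grm3 added) and 8 other pathway genes at 8 months, and changed no other count by over 1.5 times. Testing only genes above the 25th percentile of signal, which removed 8 of the 10 members, left 0 members at 4 months, 1 at 6 months, 5 other pathway genes at 6 months, 0 members in the differences from 2 months at 4 and at 6 months, and 0 in rTg4510 at 4 and at 6 months against 2. Leaving out 1 library at a time gave 1 to 3 members at 4 months and 1 to 5 at 8 months, 0 to 1 other pathway genes at 2 months (0 without rTg4510 2 months replicate 1), 1 to 2 members differing at 4 from 2 months (Grin2c added without WT 8 months replicate 1), and in rTg4510 1 to 2 members at 6 (Gria2 added without rTg4510 4 months replicate 1 or WT 8 months replicate 1) and 0 to 1 at 8 against 2 months. Quantile normalization turned the uncalled Slc1a1 estimate at 6 months from -0.05 to 0.08 and ended the Gria2 call there (-1.07, FDR = 0.116), and it added calls of Slc1a3 at 4 months (-0.76, FDR = 1.15e-05) and Grm3 at 8 months (-1.07, FDR = 0.0486). All 32 libraries brought the 4-month Slc1a3 difference to -0.72, past both thresholds. The cause of these shifts was not tested. For 9 of the 10 genes the median library was at a level of 3.5 to 11.2 inferred reads, which limits what differences could be seen.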
